A study of Mus musculus with 24 samples.

Results

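The HoxB genes are the 10 Hox genes of mouse chromosome 11, Hoxb1 to Hoxb9 and Hoxb13, and each was found by its symbol as 1 of the 19953 genes of the deposited expression table. Hox genes encode homeodomain transcription factors that give cells of the embryo their position along the head-to-tail axis. The genes of a cluster are switched on in the order in which they lie, those at the 3′ end (Hoxb1) first and furthest toward the head, those at the 5′ end last and nearest the tail, and retinoic acid is a classic inducer of the 3′ genes. MLL1 (Kmt2a) and MLL2 (Kmt2b) are histone H3 lysine 4 methyltransferases of the Trithorax group, and MLL1 is best known for keeping Hox genes active against Polycomb repression.

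The study sequenced polyA RNA of mouse embryonic stem cells of 4 genotypes, before and after differentiation, and made 3 libraries for every genotype and day (8 groups in all). Day 0 cells were stem cells kept with LIF and 15% fetal bovine serum, and day 4 cells had been cultured for 4 days without added LIF in 10% serum with 1 µM retinoic acid, a protocol that gives a mixture of lineages. WT and Mll1-KO cells were untreated, whereas Mll2-KO and double-KO cells had received 800 nM 4-hydroxytamoxifen (4-OHT) for 48 hours, so loss of Mll2 and the drug cannot be told apart. The Mll1-KO was made by CRISPR deletion in a line whose Mll2 gene can be deleted by an inducible Cre. The labels do not say whether a genotype was 1 clone, nor whether the 3 libraries of a group came from separate cultures, so p-values measure the spread between these libraries, which may be technical.

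Library depth was 17703443 to 22787858 reads at day 0 and 10748425 to 17138558 at day 4. Values below are normalized counts, that is reads divided by a size factor of the library, unless said otherwise. As a check of the labels, Kmt2a averaged 2141 ± 106 (SD, n = 3) in WT and 2362 ± 71.7 in Mll2-KO at day 4, against 55.9 ± 13.7 in Mll1-KO and 104 ± 24.0 in double-KO. Kmt2b averaged 2269 ± 57.4 in WT and 2502 ± 189 in Mll2-KO at day 4, and a count over the whole gene cannot show the deletion of single exons. Differences were tested with limma on log2(normalized count + 1), within 1 day, and called at an adjusted p (Benjamini-Hochberg over all genes tested) below 0.05. A large part of all genes passed this test, and the share is given beside the members' counts.

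All 10 genes lie on the plus strand within 174 kb of chromosome 11 (mm10 96194316 to 96368256). Hoxb13 stands at the 5′ end, 74.0 kb from Hoxb9, and Hoxb1 at the 3′ end, so that the genes run from Hoxb13 to Hoxb1 along the chromosome. The exons of Hoxb3 and Hoxb2 overlap those of the antisense gene Hoxb3os over 52.9% and 27.3% of their length, and 3.59% of the Hoxb5 exons overlap Hoxb5os. Whether the authors' counting used strand is not given in the sources used here, so reads of these pairs may not be separated.

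RefSeq promoter windows (GRCm38.p6, from 250 bases before to 50 after the start, plus strand) were found for 3 of the 10 genes, and all 3 are shown. They are chr11:96281655-96281954 for Hoxb8, chr11:96318017-96318316 for Hoxb4 and chr11:96365508-96365807 for Hoxb1. On loss of Mll2, Hoxb8 fell at day 4 while Hoxb4 and Hoxb1 did not pass the test. A link between these sequences and that difference was not tested. Capitals mark the matches, on either strand, to 3 motifs that were searched: the retinoid receptor half-site AGGTCA, the Hox-Pbx pattern TGATNNAT and the TATA box TATAAA.
Hoxb8: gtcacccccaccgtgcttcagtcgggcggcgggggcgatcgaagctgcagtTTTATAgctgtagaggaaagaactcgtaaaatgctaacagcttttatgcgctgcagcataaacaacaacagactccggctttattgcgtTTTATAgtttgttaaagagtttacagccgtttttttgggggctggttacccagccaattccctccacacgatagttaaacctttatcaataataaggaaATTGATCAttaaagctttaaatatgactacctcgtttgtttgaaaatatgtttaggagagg
Hoxb4: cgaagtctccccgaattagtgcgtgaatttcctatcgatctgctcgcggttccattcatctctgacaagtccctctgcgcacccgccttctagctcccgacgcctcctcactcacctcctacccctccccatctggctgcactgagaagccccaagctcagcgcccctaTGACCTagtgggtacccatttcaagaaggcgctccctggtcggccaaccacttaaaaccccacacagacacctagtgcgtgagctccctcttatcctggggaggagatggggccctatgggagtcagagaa
Hoxb1: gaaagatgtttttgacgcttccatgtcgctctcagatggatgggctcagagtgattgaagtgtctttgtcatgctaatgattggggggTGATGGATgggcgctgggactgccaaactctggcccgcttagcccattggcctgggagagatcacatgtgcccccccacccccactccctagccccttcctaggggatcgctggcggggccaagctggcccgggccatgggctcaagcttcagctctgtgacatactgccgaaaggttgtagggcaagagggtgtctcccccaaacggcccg
Hoxb8 holds 2 TATAAA matches, read on the minus strand as TTTATA and starting 199 and 110 bases before the start, and a minus-strand TGATNNAT match, ATTGATCA, 11 bases before it. Hoxb4 holds a minus-strand half-site, TGACCT, 81 bases before its start. Hoxb1 holds TGATGGAT on the plus strand, 162 bases before its start. Of 32851 promoter windows of the same length, 16.3% hold AGGTCA, 8.85% TGATNNAT and 13.6% TATAAA, so none of these matches is rare. The windows hold 13 CG dinucleotides (Hoxb8, 42.3% GC), 14 (Hoxb4, 58.0% GC) and 10 (Hoxb1, 59.3% GC), against a median of 7 and 52.7% over all windows.

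In undifferentiated cells the cluster was close to silent. The 10 genes together gave 45.2 to 78.2 normalized counts in WT libraries, 36.0 to 48.9 in Mll1-KO, 63.7 to 80.6 in Mll2-KO and 44.4 to 63.6 in double-KO. In bulk RNA, fewer expressing cells and less RNA per cell cannot be told apart. Hoxb5, which patterns the neck and upper trunk, had no read in WT or Mll2-KO at day 0, Hoxb6 none in Mll1-KO or Mll2-KO, and Hoxb7 none in double-KO. Hoxb4, Hoxb9 and Hoxb13 were the 3 genes with enough reads to be tested.

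Hoxb13, the most 5′ gene and a factor of the tail bud and later of the prostate, measured 20.7, 27.3 and 33.4 in the WT libraries and 13.8, 7.58 and 10.3 in double-KO. It measured 5.14, 9.76 and 21.1 in Mll1-KO, and 17.9, 21.0 and 23.6 in Mll2-KO. The double-KO libraries lay below every WT library, and 1 Mll1-KO library reached into the WT range. Hoxb13 fell by 1.29 on the log2 scale (SE 0.41, adjusted p = 0.012) in double-KO and fell by 1.28 (SE 0.41, adjusted p = 0.017) in Mll1-KO, both against WT in limma.

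Hoxb4, a paralog group 4 gene known for expanding blood stem cells, measured 9.95, 18.2 and 12.4 in WT and 5.14, 5.86 and 5.90 in Mll1-KO at day 0. It measured 25.1, 17.7 and 19.1 in Mll2-KO against 6.90, 3.37 and 6.88 in double-KO. All 6 libraries that lack MLL1 lay below all 6 that keep it. None of the libraries without MLL1 reached the 10 that the filter required in 3 libraries. Hoxb4 thus entered the test only through WT and Mll2-KO, where it was high. The separation and the calls below describe these values and are not read as support for a fall. The log2 change against WT was -1.09 in Mll1-KO (adjusted p = 0.042) and -1.126 in double-KO (adjusted p = 0.028), and double-KO against Mll2-KO gave -1.72 (adjusted p = 0.002, limma).

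Hoxb9, a thoracic gene, differed by 0.71 on the log2 scale between Mll2-KO and WT (95% interval -0.08 to 1.49, adjusted p = 0.13) and passed the test in no comparison of day 0. Of the 3 genes tested, 2 were lower in Mll1-KO than in WT, while 40% of all genes were called (18.7% lower). In double-KO against WT 2 were lower (53.7% of all genes called, 27.1% lower), and against Mll2-KO 1 was lower (47.7%, 24.3% lower). Each of these counts includes Hoxb4, which passed the filter only through WT and Mll2-KO, so no result about the cluster is read from them. With limma 0 were called in Mll2-KO against WT (47.2% of all genes), 0 in double-KO against Mll1-KO (41%) and 0 in the interaction of both losses (9.13%). In these comparisons the count was also 0 at an unadjusted p under 0.05, with edgeR and with DESeq2. These day 0 calls rest on few reads: without WT replicate 3, none of the 2 remained in either comparison with WT, and none of the 2 remained without Mll1-KO replicate 1 or without double-KO replicate 2 in the comparisons that use them.

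Endoderm markers moved with these day 0 differences. Their sum was 20286 to 21614 in WT and 20427 to 21898 in Mll2-KO, against 3491 to 3877 in Mll1-KO and 3412 to 3804 in double-KO. Of 12 tested, 11 were lower in each of the latter genotypes against WT, with 1 of the 15 listed at 0 in WT and 2 in each other group. Pluripotency markers summed to 140523 to 142869 in WT, 129343 to 132411 in Mll1-KO and 123548 to 125233 in double-KO. The part of these markers in the Hoxb4 and Hoxb13 results was not tested.

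**Figure D1:**
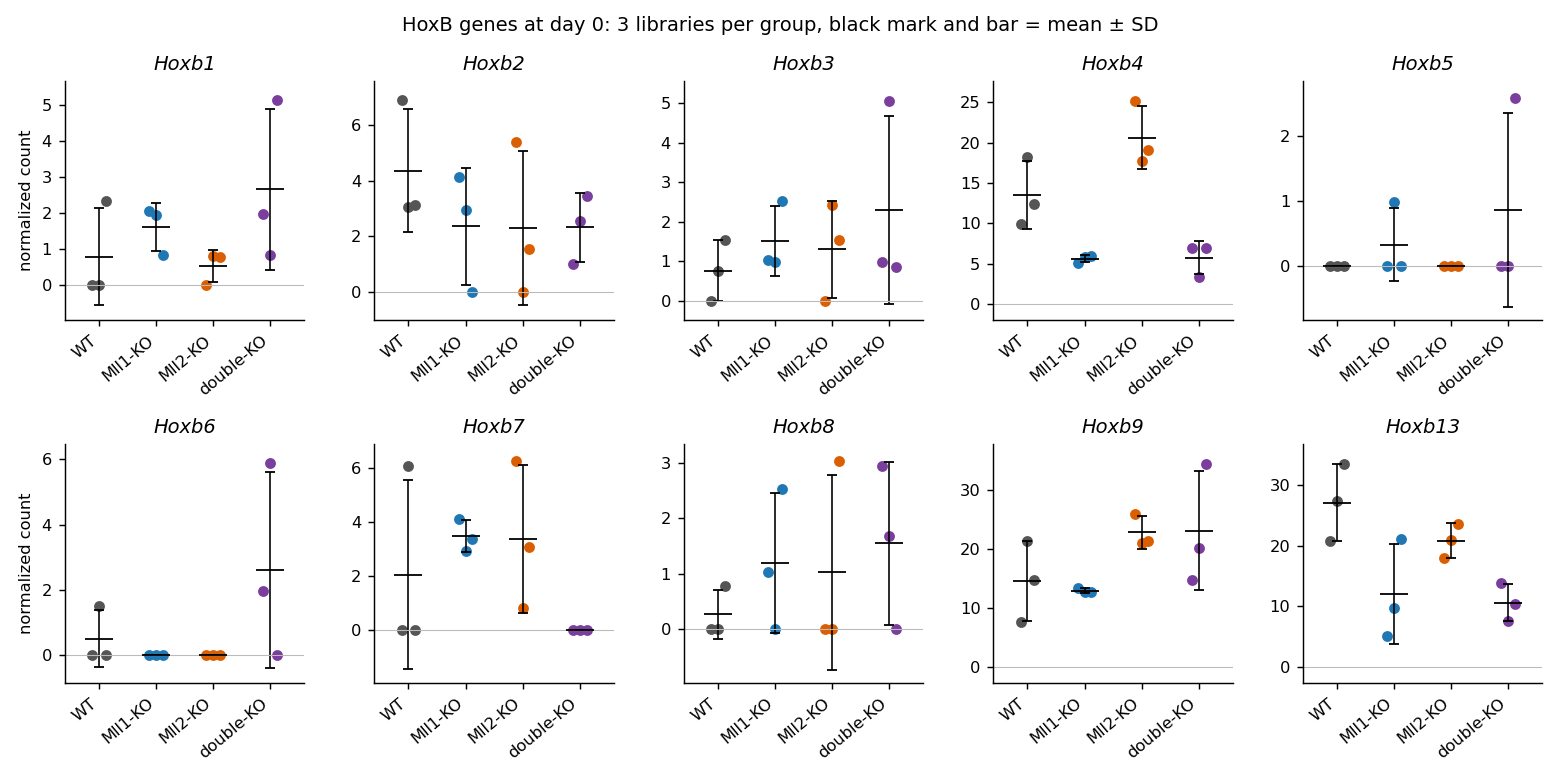
Normalized counts of the 10 HoxB genes at day 0 (vertical axis, its own scale for each gene) in the 4 genotypes; each point is a library, and the black mark and bar give the mean and SD of 3 libraries. Hoxb4 lies between 3.37 and 6.90 in the 6 libraries without MLL1 and between 9.95 and 25.1 in the other 6, while 7 genes stay near 0 throughout.

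The whole cluster was far higher at day 4. The days differ in retinoic acid, LIF, serum and time in culture, which cannot be told apart. At day 4 the summed level of the 10 genes was 5056 to 5092 in the WT libraries, 5247 to 5403 in Mll1-KO, 3670 to 3745 in Mll2-KO and 3969 to 4183 in double-KO. The other 7 genes entered the comparison of days only through their day 4 level, so no count over the cluster is read from it, and at day 4 against day 0 the share of all genes called was 82.9% in WT, 84.1% in Mll1-KO, 81.5% in Mll2-KO and 83.3% in double-KO. For the 3 genes measurable on both days, the WT mean was 18.6 times higher at day 4 for Hoxb13, 35.9 times for Hoxb4 and 53.9 times for Hoxb9. In WT, Hoxb5 was at least 155-fold higher at day 4 (against a floor of 3 reads per library at day 0), and the ratio for Hoxb1 was 478 (95% counting interval 163 to 2322, from 3 reads at day 0).

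For these 3 genes the ratio of day 4 to day 0 was also taken in the knockouts. Hoxb13 rose 7.86 times in Mll2-KO and 12.6 times in double-KO, against 25.4 times in Mll1-KO. Hoxb4 rose 24.5 times in Mll2-KO (75 reads at day 0). In Mll1-KO and double-KO, where it had been lowest at day 0, the ratios were 101 and 98.2. Those ratios rest on 18 and 19 reads over 3 libraries at day 0 and have no interval, so they are imprecise. Hoxb9 rose 26.8 times in Mll2-KO, 34.6 in double-KO and 58.9 in Mll1-KO. Which of these differences from WT pass a test is given with the changes of effect between days.

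Per kilobase of exon, the 4-day WT levels did not follow the order of the genes on the chromosome. The mean was 305 ± 33.4 (SD, n = 3) normalized counts per kb for Hoxb9 and 291 ± 15.0 for Hoxb2, whose libraries overlapped. Hoxb13 followed at 229 ± 16.7, then Hoxb4 at 189 ± 7.12 and Hoxb3 at 180 ± 6.65, which overlapped each other. Hoxb8 (164 ± 8.01), Hoxb1 (158 ± 19.8) and Hoxb6 (146 ± 13.7) were the next, each overlapping its neighbour in that order. Hoxb5 stood below them at 128 ± 4.64, and Hoxb7 was the lowest at 48.7 ± 7.44, well clear of all others.

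In Mll2-KO the order per kb changed most for the genes at the ends of the cluster, Hoxb13 and Hoxb1. Hoxb2 was first (250 ± 3.00), with Hoxb9 (237 ± 27.6) overlapping it. Lower down, Hoxb13 moved from the third place in WT to the eighth, at 74.3 ± 8.95, and Hoxb5 was at 68.0 ± 3.26. Hoxb4 (197 ± 11.8) and Hoxb1 (151 ± 14.4) came next after Hoxb9, which for Hoxb1 is place 4, from place 7 in WT. In Mll1-KO the first was Hoxb2, at 376 ± 11.4 per kb, in double-KO Hoxb9, at 311 ± 27.1, and Hoxb7 stood last in all 4 genotypes.

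**Figure D2:**
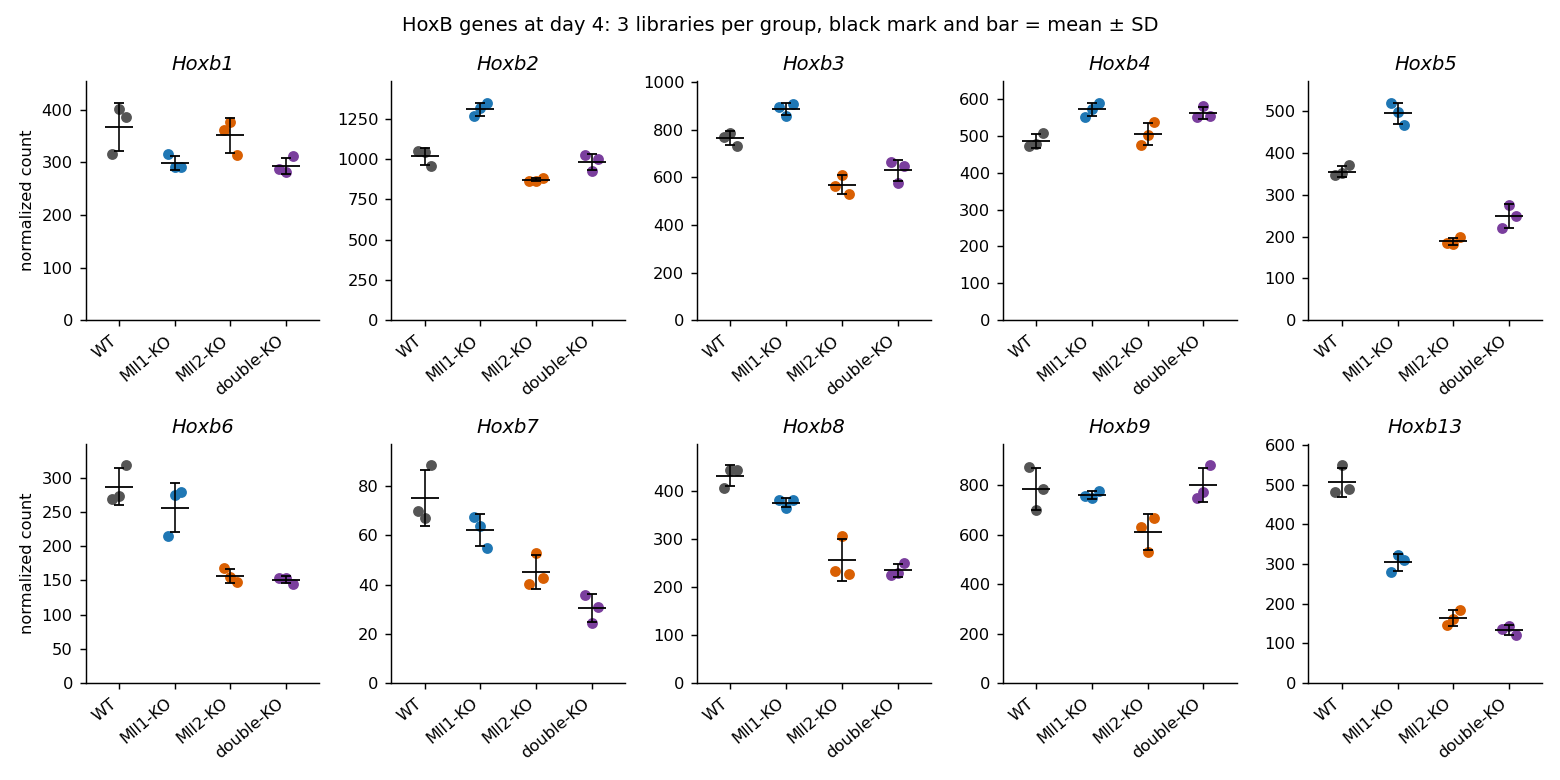
Normalized counts of the 10 HoxB genes at day 4 (vertical axis from 0, its own scale for each gene) in the 4 genotypes; each point is a library, and the black mark and bar give the mean and SD of 3 libraries. Hoxb13 steps down from 482 to 548 in WT to 280 to 322 in Mll1-KO and below 190 in the other genotypes. Hoxb2, Hoxb3 and Hoxb5 are highest in Mll1-KO, and the Hoxb4 libraries of Mll1-KO and double-KO overlap.

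Most of the cluster was lower in Mll2-KO (with 4-OHT) than in WT at day 4. Of the 10 genes, 8 were lower in Mll2-KO than in WT and none higher, with a median log2 change of -0.57 (0.04 over all genes tested), while 20.3% of all genes were called lower and 25.4% higher (45.7% in either direction). The falls were largest at Hoxb13 and over the stretch Hoxb5 to Hoxb8, smaller at Hoxb9, Hoxb3 and Hoxb2, and absent from the calls at Hoxb4 and Hoxb1.

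Hoxb13 measured 482, 548 and 488 in WT and 145, 162 and 184 in Mll2-KO. Every Mll2-KO library lay far below the WT range, a mean 3.09 times lower and a log2 change of -1.63 (SE 0.10, adjusted p = 2.9e-12). Hoxb5 measured 347, 352 and 371 in WT and 186, 182 and 200 in Mll2-KO. The groups did not overlap, and the log2 change was -0.91 (SE 0.09, adjusted p = 5e-09).

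Hoxb6, a gene of the forelimb and upper trunk levels, measured 269, 274 and 318 in WT and 168, 155 and 147 in Mll2-KO. Its groups were apart as well, with a log2 change of -0.87 (SE 0.11, adjusted p = 3.8e-07). Hoxb8, known for its part in trunk patterning, blood progenitors and grooming behaviour of the mouse, measured 406, 443 and 443 in WT and 232, 305 and 227 in Mll2-KO. The highest Mll2-KO library still lay below the lowest WT library, and the log2 change was -0.77 (SE 0.09, adjusted p = 3.1e-07). Hoxb7, the least expressed of the cluster, measured 70.1, 67.2 and 88.4 in WT and 40.2, 53.0 and 42.6 in Mll2-KO, a log2 change of -0.72 (SE 0.20, adjusted p = 0.0041) that was lost with quantile normalization (-0.37).

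The remaining calls were smaller. Hoxb3 measured 771, 788 and 733 in WT and 565, 610 and 532 in Mll2-KO, groups that did not overlap, with a log2 change of -0.43 (SE 0.06, adjusted p = 5.9e-06). Hoxb9 measured 872, 700 and 785 in WT and 633, 531 and 668 in Mll2-KO, a log2 change of -0.36 (SE 0.08, adjusted p = 0.00063) with every Mll2-KO library below every WT library. Hoxb2, a hindbrain gene that is a direct target of Krox20 (Egr2) there, gave 1052, 1042 and 957 in the WT libraries and 864, 867 and 884 in those of Mll2-KO. The 3 Mll2-KO libraries were nearly equal and all below WT, with a log2 change of -0.22 (SE 0.05, adjusted p = 0.0014).

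Hoxb4 and Hoxb1 were not called. Hoxb4 measured 473, 478 and 507 in WT and 475, 502 and 536 in Mll2-KO, and the 95% interval of the log2 difference ran from -0.08 to 0.18 (adjusted p = 0.52). Hoxb1, which specifies the fourth segment of the hindbrain and carries retinoic acid response elements, measured 315, 401 and 386 in WT and 362, 377 and 313 in Mll2-KO. Its groups overlapped fully, and the interval was -0.25 to 0.13 (adjusted p = 0.6).

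These 8 calls were also 8 without each day 4 library in turn. With all 24 libraries sharing the estimate of the spread, 2 of the 8 remained, Hoxb13 and Hoxb5. In that fit the residual SD on the log2 scale combines both days: it had a median over the members of 0.76 at day 0, where the counts are near 0, and of 0.1285 at day 4. Cell type markers also differed between the groups. The sum of 15 endoderm markers was 141268 to 145524 in WT and 203399 to 209073 in Mll2-KO (9 called higher and 2 lower of 15 tested), and the sum of 14 pluripotency markers was 7588 to 8734 against 11062 to 12612 (8 higher and 1 lower of 13). The 14 mesoderm markers summed to 4271 to 4575 against 4986 to 5273 (1 higher, 6 lower of 10) and the 15 neural markers to 4496 to 5001 against 4480 to 5122 (6 higher, 3 lower of 13). The 8 trophectoderm markers in the table summed to 36956 to 38303 against 30251 to 33309 (2 higher, 4 lower of 7) and the 10 fibroblast markers to 18394 to 20309 against 20340 to 23197 (3 higher, 2 lower of 8). In each group 1 fibroblast marker had no read and no marker of the other lists was at 0. Their part in the HoxB result was not tested.

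**Figure D3:**
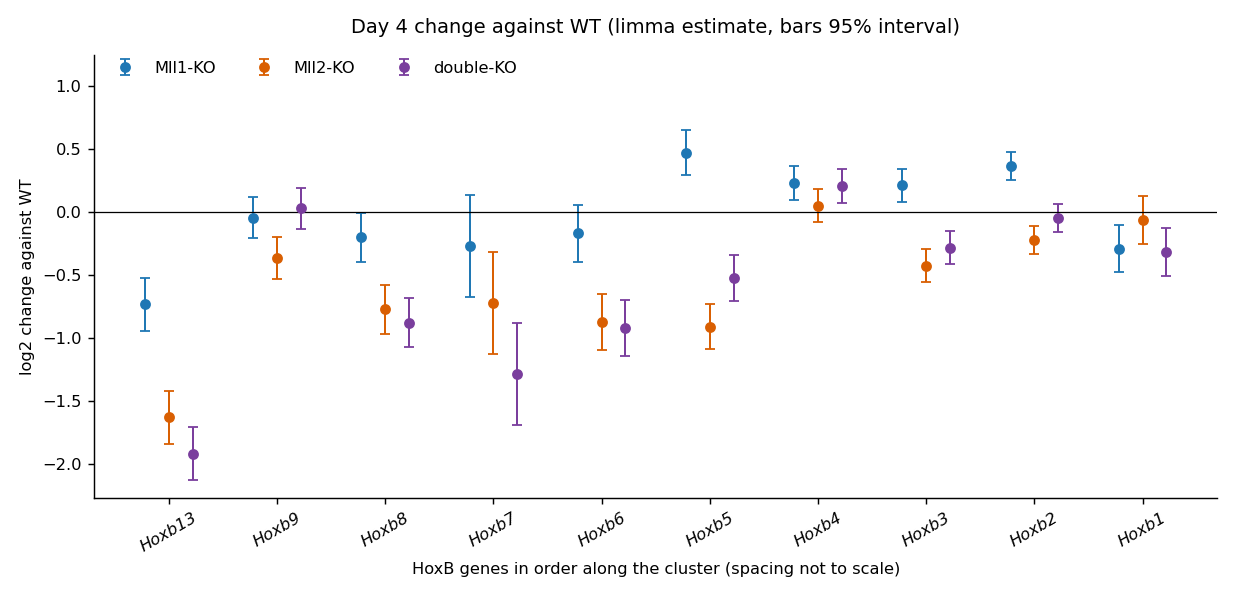
Log2 change against WT at day 4 (limma, bars 95% interval) for the 10 HoxB genes in chromosome order, in Mll1-KO, Mll2-KO and double-KO, which share the same WT libraries. Hoxb13 is lowest in each genotype (-0.73, -1.63 and -1.92), and Hoxb2 to Hoxb5 lie above 0 in Mll1-KO.

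In Mll1-KO, HoxB genes were called in both directions at day 4. Of the 10 genes, 4 were higher in Mll1-KO than in WT and 2 lower, with a median of -0.11 (-0.002 over all genes), while 35.8% of all genes were called (16.5% higher and 19.2% lower). The 4 that rose are neighbours, Hoxb2 to Hoxb5. The 2 that fell were Hoxb1 and Hoxb13. Their number is near the share of all genes called lower, so nothing is read from their places at the ends of the cluster.

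Hoxb5 measured 519, 499 and 468 in Mll1-KO, all above the 347 to 371 of WT, a log2 change of 0.47 (SE 0.09, adjusted p = 0.00012). Hoxb2 measured 1267, 1316 and 1346, all above the 957 to 1052 of WT, a change of 0.37 (SE 0.05, adjusted p = 5.7e-06). Hoxb4 measured 551, 573 and 588 (0.23, adjusted p = 0.0061) and Hoxb3 measured 897, 857 and 906 (0.22, adjusted p = 0.01), again above every WT library. Each of these genes was thus 1.16 to 1.39 times its WT mean.

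Hoxb13 measured 280, 322 and 311 in Mll1-KO against 482 to 548 in WT, a log2 change of -0.73 (SE 0.10, adjusted p = 3.3e-06). The 3 libraries lay between the WT and the Mll2-KO range. Hoxb1 measured 315, 291 and 292, of which the first equals the lowest WT library after rounding, and the change was -0.29 (SE 0.09, adjusted p = 0.017). The Hoxb1 call was lost without WT replicate 2 or 3 and without Mll1-KO replicate 2 or 3, and the Hoxb3 call without WT replicate 3. Hoxb6 to Hoxb9 were not called, with log2 changes from -0.27 (Hoxb7, 95% interval -0.67 to 0.14) to -0.04 (Hoxb9, -0.21 to 0.12). None of the 6 calls remained with all 24 libraries in the fit.

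The marker sums moved with Mll1 loss too. Endoderm markers summed to 69309 to 74482 in Mll1-KO, and all 15 were called lower. Pluripotency markers summed to 4556 to 5077 (12 of 13 lower), neural markers to 5448 to 6205 (3 higher, 4 lower of 13) and mesoderm markers to 3368 to 3479 (1 higher, 4 lower of 10, with 1 of 14 at 0). Trophectoderm markers summed to 27562 to 30943 (1 higher, 5 lower of 7) and fibroblast markers to 23275 to 25984 (3 higher, 1 lower of 8). Their part in the HoxB result was not tested.

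In double-KO, 7 genes were lower and 1 higher than in WT, with a median of -0.42 (0.026 over all genes), while 50.9% of all genes were called (23.3% lower, 27.6% higher). Hoxb13 measured 137, 144 and 120, a log2 change of -1.92 (SE 0.10, adjusted p = 7.3e-14) and a mean 3.79 times below WT. Hoxb7 measured 35.8, 24.5 and 30.8, a change of -1.29 (SE 0.20, adjusted p = 5.9e-06). These were the largest falls of the cluster, with every double-KO library under every WT library.

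Hoxb6 (154, 153 and 145) changed by -0.92 (adjusted p = 1e-07) and Hoxb8 (225, 228 and 249) by -0.88 (adjusted p = 2.4e-08). Hoxb5 (220, 277 and 249) changed by -0.52 (adjusted p = 1.8e-05), less far than in Mll2-KO. Hoxb1 (287, 282 and 311) changed by -0.32 (adjusted p = 0.0058) and Hoxb3 (663, 578 and 647) by -0.28 (adjusted p = 0.00066). Hoxb4 was the gene that rose, with 550, 581 and 554 against 473 to 507 in WT, a change of 0.21 (SE 0.06, adjusted p = 0.0083), and this call was lost with scaling to library totals and with DESeq2.

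Hoxb9 and Hoxb2 were not called in double-KO against WT. Hoxb9 measured 750, 773 and 880, overlapping WT, with an interval of -0.14 to 0.20 on the log2 scale (adjusted p = 0.78). Hoxb2 measured 1025, 927 and 998, also overlapping WT, with an interval of -0.16 to 0.06 (adjusted p = 0.48). With all 24 libraries in the fit, 2 of the 8 calls remained, Hoxb13 and Hoxb7. Endoderm markers summed to 113855 to 117412 in double-KO (1 higher, 10 lower of 15), pluripotency markers to 6505 to 7010 (2 higher, 5 lower of 13), neural markers to 6807 to 7363 (4 higher, 4 lower of 13) and mesoderm markers to 3680 to 3820 (8 lower of 10). Trophectoderm markers summed to 32492 to 35877 (3 lower of 7) and fibroblast markers to 32615 to 35046 (6 higher, 2 lower of 8). The part of these markers in the result was not tested.

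The effect of losing Mll2 (with 4-OHT) can also be read where Mll1 is already gone, by setting double-KO against Mll1-KO. Of the 10 genes, 7 were lower and none higher (54.8% of all genes were called, 23.7% lower and 31.1% higher). The 7 were Hoxb2, Hoxb3, Hoxb5 to Hoxb8 and Hoxb13. Hoxb13 changed by -1.19 (SE 0.10, adjusted p = 4.5e-10), Hoxb7 by -1.02 (SE 0.20, adjusted p = 0.00011) and Hoxb5 by -0.995 (SE 0.09, adjusted p = 5.8e-10). Hoxb6 (-0.75), Hoxb8 (-0.68), Hoxb3 (-0.50) and Hoxb2 (-0.41) followed, with adjusted p-values from 4e-07 to 2.2e-06. Hoxb1, Hoxb4 and Hoxb9 were not called, with log2 differences of -0.03, -0.02 and 0.07. With all 24 libraries in the fit, 2 of the 7 calls remained, Hoxb13 and Hoxb5.

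Whether the effect of Mll2 loss differed with and without Mll1 was tested as an interaction at day 4, which called 2 genes with a positive difference, Hoxb9 and Hoxb13 (13.6% of all genes were called, 7.59% with a positive difference). For Hoxb9 the change was -0.36 with Mll1 present and 0.07 without it, a difference of 0.44 (SE 0.11, adjusted p = 0.012). For Hoxb13 it was -1.63 and -1.19, a difference of 0.44 (SE 0.14, adjusted p = 0.043). The other 8 genes had differences from -0.30 (Hoxb7, 95% interval -0.87 to 0.28) to 0.12 (Hoxb6, -0.20 to 0.43), and Hoxb2, at -0.19, had an adjusted p of 0.089. The Hoxb13 call was lost without any of 10 of the 12 day 4 libraries, the exceptions being Mll2-KO replicate 3 and double-KO replicate 3. It was also lost with scaling to column totals and with DESeq2. Both calls were lost without the filter on low counts and with all 24 libraries in the fit.

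**Figure D4:**
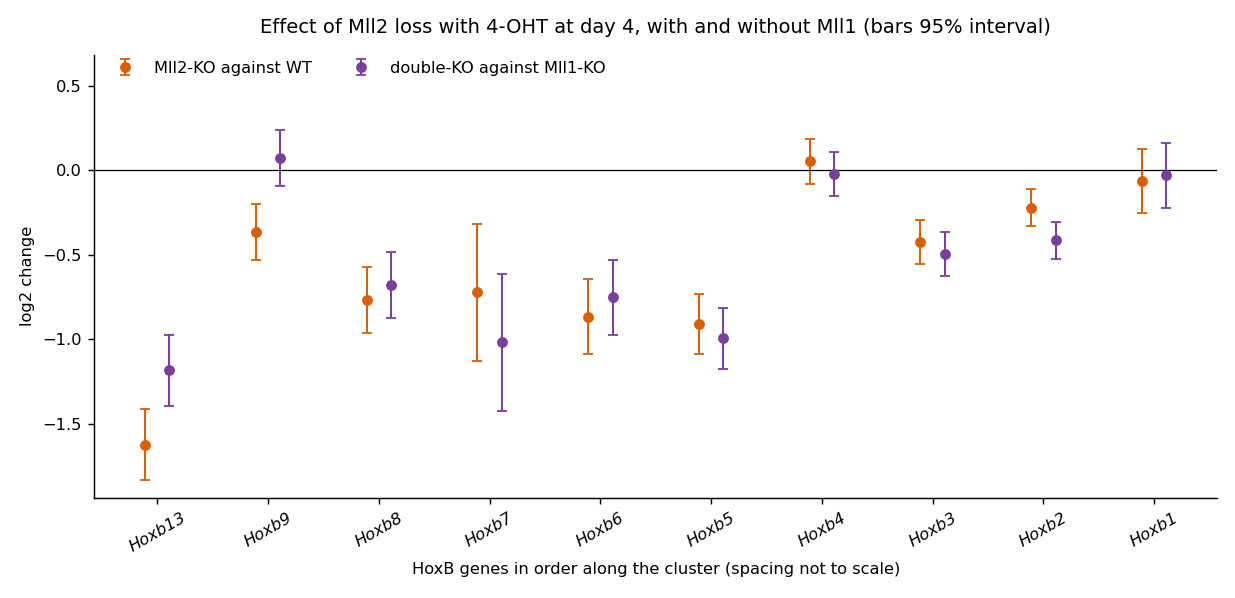
Log2 change on loss of Mll2 with 4-OHT at day 4 (limma, bars 95% interval) for the 10 HoxB genes in chromosome order, measured with Mll1 present (Mll2-KO against WT) and with Mll1 absent (double-KO against Mll1-KO). The 2 estimates stand furthest apart at Hoxb9 (-0.36 and 0.07) and Hoxb13 (-1.63 and -1.19).

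Set against Mll2-KO, double-KO had 3 genes higher and 3 lower (40.3% of all genes were called, 19.4% higher and 20.9% lower). Hoxb9 (0.39, adjusted p = 0.00032), Hoxb5 (0.39, adjusted p = 0.00086) and Hoxb2 (0.17, adjusted p = 0.011) were higher when Mll1 was missing as well. Hoxb7 (-0.57, adjusted p = 0.024), Hoxb13 (-0.29, adjusted p = 0.025) and Hoxb1 (-0.25, adjusted p = 0.031) were lower. The 3 lower calls were each lost in limma without 1 of several libraries (for Hoxb13 Mll2-KO replicates 2 and 3 and double-KO replicate 3, for Hoxb7 replicate 2 of either group, for Hoxb1 replicate 1 or 2 of either group), and with DESeq2. The Hoxb2 call was lost without double-KO replicate 1, and none of the 6 calls remained with all 24 libraries in the fit.

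For some HoxB genes the fitted effect of a genotype differed between the days. These differences come from the fit of all 24 libraries, which pools the spread of both days. The log2 SD of Hoxb4 was 0.348 at day 0 and 0.06 at day 4. The SEs below for Hoxb4, Hoxb13 and Hoxb9 are smaller than those of their day 0 effects alone (0.418, 0.412 and 0.377). Their error is thus understated. In this fit the day 4 rise of Hoxb4 was not called in Mll1-KO or double-KO. For Hoxb4 the fitted effect of Mll1 loss differed between the days by 1.33 (SE 0.29, adjusted p = 0.00078, limma). The double-KO effect on Hoxb4 differed by 1.335 (SE 0.29, adjusted p = 0.00057). The day 0 part of both differences is the separation that is not read as support for a fall, so no reversal is read from them. In each case Hoxb4 was the 1 gene called of the 3 that could be tested on both days. That count is near the share of all genes called, 34% for Mll1-KO and 39.4% for double-KO. The Mll2-KO effect was lower at day 4 than at day 0 for Hoxb13 (-1.28, SE 0.40, adjusted p = 0.015) and Hoxb9 (-1.07, SE 0.34, adjusted p = 0.015), 2 of those 3 genes (36.3% of all genes). For Hoxb6, Hoxb8 and Hoxb1 the double-KO difference was lower at day 4 by the fitted values (-1.93, -1.74 and -1.43), but these genes had 1 to 9 reads per group in WT and double-KO at day 0 and entered the fit only through day 4, so nothing is read from it. The Hoxb9 call was lost without WT replicate 1 of day 0.

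Of the noncoding genes inside the cluster, 3 were in the table. Hoxb5os, transcribed from the strand opposite Hoxb5 and Hoxb6, had no read in any group at day 0 and measured 294, 289 and 260 in WT at day 4. It measured 117, 125 and 93.8 in Mll2-KO (-1.33, SE 0.12, adjusted p = 9.9e-10) and 76.1, 72.1 and 78.7 in double-KO (-1.88, SE 0.12, adjusted p = 1.1e-12), both below all WT libraries. In Mll1-KO it measured 252, 248 and 233 (-0.20, adjusted p = 0.19). Its coding neighbours Hoxb5 and Hoxb6 were lower in the same 2 genotypes, as were Hoxb3, Hoxb7, Hoxb8 and Hoxb13. Exon overlap with Hoxb5os was found for Hoxb5, over 3.59% of its exons, and not for Hoxb6. Reads from the opposite strands may not be separated over that stretch. Hoxb3os (9.32 ± 4.29 in WT) and the lincRNA Gm53 (18.3 ± 1.93 in WT), which lies in the gap between Hoxb13 and Hoxb9, were not called in any of the 3 comparisons with WT at day 4.

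Of the 5 nearest table genes on the Hoxb13 side, 3 were higher and none lower in Mll2-KO than in WT at day 4, and of 3 tested on the Hoxb1 side 1 was higher and none lower. Of all genes, 45.7% were called (25.4% higher and 20.3% lower), so the number of neighbours called is near that share. Skap1, the nearest gene on the Hoxb1 side at 96.3 kb, was too low to be tested: it measured 8.13, 8.02 and 9.42 in WT (24 reads), 0.98, 0 and 1.09 in Mll2-KO (2 reads), and had no read in double-KO. At day 0, Atp5g1 (-0.20, adjusted p = 0.0078) and Ube2z (-0.22, adjusted p = 0.0002) on the Hoxb13 side were lower in Mll2-KO in limma. Nfe2l1 on the Hoxb1 side was higher there (0.93, adjusted p = 3.1e-09), the largest change of the tested neighbours. Of all genes, 47.2% were called in this comparison. Calcoco2, an autophagy receptor gene 82.4 kb from Hoxb13, measured 296, 492 and 404 in WT and 919, 1136 and 943 in Mll2-KO (1.35, SE 0.13, adjusted p = 4.9e-09). In Mll1-KO it measured 205, 256 and 177 (-0.88, adjusted p = 6.3e-06) and in double-KO 679, 684 and 635 (0.77, adjusted p = 1.9e-05). Ttll6, a tubulin polyglutamylase gene 28.9 kb from Hoxb13, measured 19.3, 8.02 and 18.8 in WT and 34.3, 38.7 and 29.5 in Mll2-KO (1.19, SE 0.32, adjusted p = 0.0038). Both thus changed in the direction opposite to Hoxb13 in Mll2-KO. The other 6 tested neighbours had log2 changes from -0.04 to 0.15 in Mll2-KO, of which Atp5g1 (0.15, adjusted p = 0.016) and Nfe2l1 (0.15, adjusted p = 0.0011) were called.

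**Figure D5:**
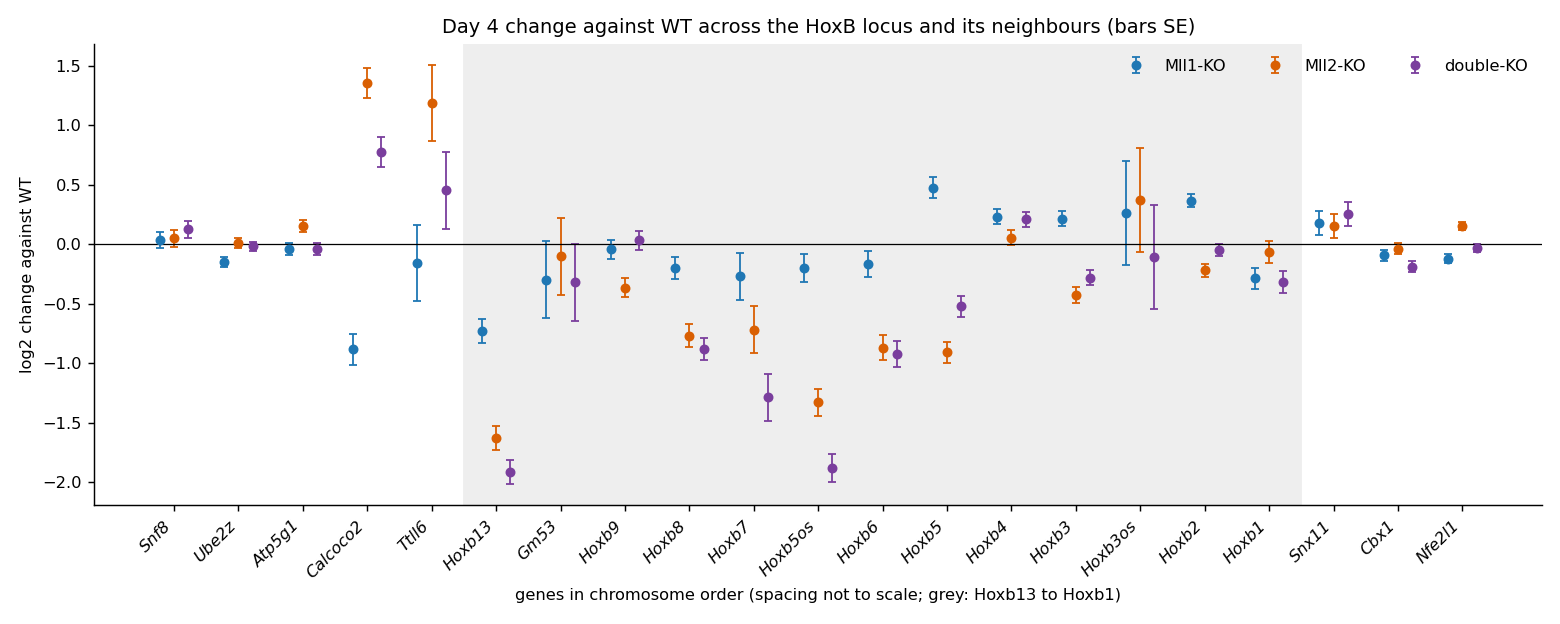
Log2 change against WT at day 4 (limma, bars SE) for genes in chromosome order, with the stretch from Hoxb13 to Hoxb1 shaded and 5 tested neighbours on the Hoxb13 side and 3 on the Hoxb1 side. In Mll2-KO the values go from 1.35 (Calcoco2) and 1.19 (Ttll6) to -1.63 at Hoxb13.

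The other Hox clusters are given by their counts, and for Mll2-KO also their sums, beside the HoxB count of 8 lower of 10 in Mll2-KO at day 4. For these and the following lists the share of all genes called was 45.7% in Mll2-KO, 35.8% in Mll1-KO and 50.9% in double-KO, and several lists lie near it. Of 10 HoxA genes tested, 6 were lower and 1 higher (median -0.35), of 7 HoxC genes 6 lower and 1 higher (-0.51), and of 7 HoxD genes 3 lower and none higher (-0.55). The summed HoxA level nevertheless overlapped, at 5253 to 5381 in Mll2-KO and 5194 to 5380 in WT. The sums of HoxC (1445 to 1654 against 2124 to 2391) and HoxD (463 to 474 against 718 to 746) were lower in Mll2-KO. Hoxa5 (-0.17, adjusted p = 0.0022), Hoxa4 (-0.60, adjusted p = 9.6e-05) and Hoxa7 (-0.82, adjusted p = 0.00025) were among the HoxA genes that fell. The genes named from these lists are called ones with a high mean. In Mll1-KO, 4 HoxA genes were lower and 2 higher, 1 HoxC gene lower and 2 higher, and 3 HoxD genes higher. There Hoxa10 (-1.62, adjusted p = 6.2e-06) fell, and Hoxa4 (0.55, adjusted p = 0.0004) and Hoxa5 (0.27, adjusted p = 2.1e-05) rose. In double-KO, 5 HoxA genes were lower and 2 higher (median -0.98), 4 HoxC lower and 2 higher (-0.51) and 4 HoxD lower (-0.61), with Hoxa7 at -2.01 (adjusted p = 2.2e-10) and Hoxa4 at 0.51 (adjusted p = 0.00049).

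Partners and inducers of Hox genes moved in both directions. Of 9 Meis, Pbx and Pknox genes, whose products bind DNA together with Hox proteins, 4 were lower and 1 higher in Mll2-KO and 6 higher in Mll1-KO at day 4. Meis2 measured 4364, 4208 and 4105 in WT, 3284, 3324 and 3342 in Mll2-KO (a log2 change of -0.35; adjusted p, 4.6e-08) and 5626, 5539 and 5609 in Mll1-KO (0.40, adjusted p = 6.7e-09). Its 3 groups did not overlap. Of 7 tested genes known to induce Hox genes, 2 were higher and 2 lower in Mll2-KO, and 2 higher and 4 lower in Mll1-KO. Cdx1, a homeobox gene that activates trunk Hox genes, measured 127, 177 and 163 in WT, 297, 335 and 306 when Mll2 was lost (1.01, adjusted p = 7.2e-05) and 46.4, 87.2 and 101 in Mll1-KO (-1.04, adjusted p = 7.3e-05).

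Of 18 tested genes of the retinoic acid pathway at day 4, 5 were higher and 7 lower in Mll2-KO, 8 higher and 3 lower in Mll1-KO, and 5 higher and 8 lower in double-KO, with medians of -0.02, 0.11 and -0.09. Stra8, a retinoic acid target best known from the germ line, was lower in Mll2-KO (-0.94, adjusted p = 4.7e-13), as was Dhrs3, which reduces retinaldehyde (-0.44, adjusted p = 1.8e-08). Aldh1a2, the enzyme that makes retinoic acid in the trunk, is named after its values were seen and measured 380, 393 and 470 in WT and 46.1, 47.9 and 41.5 in Mll2-KO (-3.17, adjusted p = 3e-16), and 40.3, 30.7 and 39.9 in double-KO (-3.46, adjusted p = 3.5e-17). It was higher in Mll1-KO, at 665, 685 and 641 (0.68, adjusted p = 9.7e-05). Cyp26a1, which breaks retinoic acid down and is itself induced by it, averaged 9973 ± 317 in WT, 12826 ± 422 in Mll2-KO (0.36, adjusted p = 1e-07) and 7258 ± 72.1 in Mll1-KO (-0.46, adjusted p = 3.7e-09). The receptor gene Rarb, another direct target, differed by 0.12 in Mll2-KO (adjusted p = 0.023) and -0.08 in Mll1-KO (adjusted p = 0.13).

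Of 10 genes of the MLL1 and MLL2 complexes, 2 were higher and none lower in Mll2-KO at day 4, and 1 was higher and 3 lower, Kmt2a among them, in Mll1-KO. Of 17 Polycomb genes, whose products silence Hox clusters, 3 were higher and none lower in Mll2-KO, 3 higher and 5 lower in Mll1-KO, and 3 higher and 6 lower in double-KO. The medians of the Polycomb genes lay between -0.04 and 0.05 in the 3 comparisons.

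Outside the Hox families, the genes most like the cluster over the 24 libraries, by Pearson's r between log2(normalized count + 1) and the members' mean z-score, were Bmp5 (r = 0.998), Hmga2 (0.997), Arg1 (0.997), Maged1 (0.996) and Mdk (0.996). These correlations describe mainly the contrast between the days, which all these libraries share. Arg1, the urea cycle arginase, measured 313, 370 and 298 in WT at day 4 and 114, 125 and 133 in Mll2-KO (-1.39, adjusted p = 1.5e-10). Bmp5, a secreted BMP ligand (-0.48, adjusted p = 0.0014), and Hmga2, an architectural chromatin protein (-0.36, adjusted p = 1.3e-06), were also called lower. Maged1 and Mdk were not called, at -0.01 and -0.08. Of all genes, 45.7% were called in this comparison (20.3% lower). The Mll2-KO libraries were among those used to choose these genes, so their falls are not separate support.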

How the data were processed

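The deposited table gives 24 libraries by 19953 genes as normalized counts (recorded as signal), the authors' counts divided by a size factor per library. Multiplying back gave whole reads for 100% of values (tolerance 1e-06). Each column was matched to a library, so 0 were unused, although day 0 WT columns carry a letter that the labels do not explain. The submitters' processing notes name STAR 2.7.10a, RSEM 1.3.1, DESeq2 1.34.0, Trim Galore 3.4, SAMtools 1.13, FastQC and mm10. Annotation and strand setting are not given in the sources used here.

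The test was limma 3.58.1 (R 4.3.3, with trend) on log2(normalized count + 1), for genes reaching 10 in 3 or more libraries, over the 12 libraries of a day, or all 24 for comparisons across days. It was tested on simulated data. Alternatives were edgeR 4.0.16 on the recovered reads (6406 genes called for Mll2-KO against WT at day 4), DESeq2 1.42.0, other scalings, pseudocounts and filters, a replicate block, and leaving out each library.

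Members, lists and rules were chosen with earlier results of these data known. Named were all members, 5 neighbours a side, up to 4 called genes with the highest mean from each list, and the 5 most similar genes (mean of at least 50 in their highest group). Some genes that this rule names are not reported here. Positions and exon lengths came from GENCODE M21 (mm10), promoters from RefSeq. The 3 comparisons with WT share its libraries.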

Additional observations from a re-analysis of the deposited data

Results flagged for a closer look

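Effects that differed between 2 backgrounds or 2 days, by the limma test of the difference itself, are listed here as log2 differences. The effect of Mll2 loss (with 4-OHT) at day 4 differed with and without Mll1 for Hoxb9 (0.437) and Hoxb13 (0.44). Both calls were lost without the filter on low counts and with all 24 libraries in the fit. The Hoxb13 call was also lost without any of most single day 4 libraries, with scaling to column totals and with DESeq2. From day 0 to day 4 the Mll1-KO effect differed for Hoxb4 (1.326), and the Mll2-KO effect for Hoxb9 (-1.071) and Hoxb13 (-1.276). Over the same days the double-KO effect differed for Hoxb4 (1.335). These differences between days come from a fit that pools the spread of both days, so their error is understated. The fitted difference also passed the threshold for Hoxb1 (-1.431), Hoxb6 (-1.928) and Hoxb8 (-1.738), but these had 1 to 9 reads per group in WT and double-KO at day 0, entered the fit only through day 4, and lost the call without single libraries. Hoxb4 is the gene that appears in both comparisons with Mll1 missing, and its 6 day 0 libraries without MLL1 lay below the other 6. At day 0 it passed the filter only through WT and Mll2-KO, where it was high, so this separation is not read as support.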

How the results depend on the processing

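No named change of a HoxB gene turned its sign in a call under any alternative run. Counts of members called are given with the reported count in brackets. Quantile normalization gave 1 (2) for Mll1-KO and 1 (0) for Mll2-KO against WT, 1 (2) for double-KO against WT and 1 (0) against Mll1-KO at day 0, and 7 (4) for the change of the double-KO effect between days. Scaling to column totals gave 1 (2) for the interaction at day 4. A pseudocount of 5 gave 5 (2) for the change of the Mll2-KO effect. Without the filter on low counts, Mll1-KO against WT at day 0 gave 1 (2), the interaction at day 4 gave 0 (2) and the change of the double-KO effect gave 2 (4). DESeq2 gave 3 (6) for double-KO against Mll2-KO and 1 (2) for the interaction at day 4.

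With all 24 libraries in the fit, the day 0 counts were 2 (0) for Mll2-KO against WT, 4 (2) for double-KO against WT, 3 (0) against Mll1-KO, 5 (1) against Mll2-KO and 2 (0) for the interaction, and the members tested then were 10. The day 4 counts were 0 (6) for Mll1-KO, 2 (8) for Mll2-KO and 2 (8) for double-KO against WT, 2 (7) for double-KO against Mll1-KO, 0 (6) against Mll2-KO and 0 (2) for the interaction. With the 6 compared libraries alone, an alternative chosen after seeing the data, Mll1-KO and double-KO against WT at day 0 each gave 1 (2).

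The numbers did not pair the libraries: same-numbered libraries correlated with a median of 0.000569 at day 0 (-0.0446 to 0.0768) and 0.017 at day 4 (-0.0294 to 0.0588). The replicate block moved 1 call, Hoxb4 in Mll1-KO against WT at day 0, whose comparison then gave 1 (2).

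Leaving out each library in turn gave 0 to 2 members for Mll1-KO and 0 to 2 for double-KO against WT at day 0, 0 in every case for Mll2-KO, for double-KO against Mll1-KO and for the interaction, and 1 in every case for double-KO against Mll2-KO. At day 4 it gave 4 to 6 for Mll1-KO, 8 in every case for Mll2-KO and for double-KO against WT, 7 in every case for double-KO against Mll1-KO, 4 to 6 against Mll2-KO and 1 to 2 for the interaction. The changes of effect between days gave 1 to 2, 1 to 4 and 2 to 5 for Mll1-KO, Mll2-KO and double-KO. In comparisons across days 7 of the 10 members entered only through day 4, so these counts say nothing of stability.

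Scaling to column totals also moved the split of all genes called: for Mll2-KO against WT at day 4 to 2047 higher and 3898 lower (3634 and 2903), for Mll1-KO to 3137 and 2062 (2367 and 2753), for double-KO to 2898 and 4120 (3945 and 3332) and for double-KO against Mll1-KO to 2682 and 4750 (4443 and 3391). At day 0 it left 38.9% of the calls higher for Mll1-KO against WT and 38.1% for double-KO against Mll2-KO, and for the changes of the Mll1-KO and Mll2-KO effects 64.8% and 37.5%. The interaction over all genes called 702 without the filter (1277) at day 0, and at day 4 1068 without the filter, 1000 with all 24 libraries and 1269 without Mll2-KO replicate 2 (1951). Scaling to column totals moved the median change of all genes from day 0 to day 4 from 0.044 to 0.169 (log2) in WT, from 0.061 to 0.296 in Mll1-KO and from 0.044 to 0.166 in double-KO. No member called under both scalings changed direction. At day 0, 7 members were too low to be tested, although those libraries were the deeper ones.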
